A study of Mus musculus with 3 samples.

Results

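The T cell receptor genes were examined in RNA from sorted mouse B cell lymphomas. Members were the rows whose annotated gene type is a T cell receptor V, D, J or constant segment and that had at least 1 count in any of the 3 libraries. This gave 43 of the 176 receptor rows listed, among 25463 genes with a count. By locus, 17 members belong to alpha (Tra), 22 to beta (Trb), 3 to gamma (Trg) and 1 to delta (Trd). By class, 23 are V segments, 1 is a D segment, 13 are J segments and 6 are constant genes. They were chosen by their measured counts, so their detection is a description and supports nothing. Just inside the threshold lay 13 members with a single count over all libraries, and just outside it 133 listed rows with none.

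All libraries came from C57BL/6 mice of 1 genotype, pBIC2, which carries p53F/F, Blimp1F/F, IKK2castopF/stopF, Cg1Cre/+ and Eu-hBCL2tg/+. Cre is thus driven from the Cγ1 immunoglobulin locus, and a human BCL2 transgene from the Eµ enhancer. Spleens were taken when the mice were moribund, and live B220+GFP+ cells were sorted for polyA RNA sequencing with single reads of 50 nt. The 3 lymphoma libraries are called tumours 1, 2 and 3 here. They form 1 group, and normal B cells were not analysed here. Each tumour has 1 library, so differences between tumours have no replicate check, no test was possible, and intervals cover counting error only. Library totals ran from 15576975 to 17014022 counts. All 5 B cell markers examined (Cd79a, Cd79b, Ms4a1, Pax5 and Ebf1) were present in every tumour, with summed levels of 3693, 7086 and 5779 CPM (counts per 1000000 of the library total after TMM scaling) in tumours 1, 2 and 3.

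T cells recognise antigen through a receptor of paired chains, alpha with beta or gamma with delta. Each chain is assembled by recombination that joins 1 V segment to 1 J segment, with a D segment between them in beta and delta chains, and the joined exon is then spliced to a constant exon. The DNA between the joined segments is removed from that chromosome, while V segments before the used V and J segments after the used J stay in place. The joint differs from cell to cell, and descendants of 1 cell share it. Unrearranged receptor loci can also be transcribed, without a joined V segment. B cells rearrange immunoglobulin loci instead.

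Most segments below are shown because together they held most of the V and J counts in tumour 3. Trbv13-1 and Trbv13-3 had few counts there and are shown as family members of Trbv13-2. All are reference sequences of GENCODE M21 (mm10, chromosome 6 for beta and chromosome 14 for alpha, all on the plus strand), not reads, and no joint was read here. Capitals mark the codon TGT of the conserved cysteine, with which the antigen-contacting loop starts, in the V segments.
Trbv13-2 (last 240 bases, chr6:41121396-41121832 for the gene): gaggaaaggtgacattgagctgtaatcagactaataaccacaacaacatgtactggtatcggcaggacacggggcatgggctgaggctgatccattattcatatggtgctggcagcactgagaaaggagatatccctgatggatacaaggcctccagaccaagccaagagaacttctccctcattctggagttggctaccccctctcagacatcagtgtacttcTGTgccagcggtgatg
Trav6-2 (last 240 bases, chr14:52667411-52667864 for the gene): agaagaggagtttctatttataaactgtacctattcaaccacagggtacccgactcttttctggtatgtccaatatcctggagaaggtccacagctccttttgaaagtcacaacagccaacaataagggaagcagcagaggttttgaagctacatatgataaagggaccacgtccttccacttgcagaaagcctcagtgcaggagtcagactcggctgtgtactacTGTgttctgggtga
Trbv12-2 (last 60 bases, chr6:41118851-41119364 for the gene): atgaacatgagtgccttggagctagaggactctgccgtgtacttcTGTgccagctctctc
Trbv13-1 (last 60 bases): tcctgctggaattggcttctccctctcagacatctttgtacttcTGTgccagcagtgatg
Trbv13-3 (last 60 bases): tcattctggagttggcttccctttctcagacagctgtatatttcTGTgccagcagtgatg

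In the J segments, capitals mark TTTGG or TTCGG, the codons of the phenylalanine and glycine at which the same loop ends.
Trbj2-5 (chr6:41543453-41543501): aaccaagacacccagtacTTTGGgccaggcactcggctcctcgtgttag
Trbj2-6 (pseudogene, chr6:41543598-41543645): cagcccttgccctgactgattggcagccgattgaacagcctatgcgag
Trbj2-7 (chr6:41543810-41543856): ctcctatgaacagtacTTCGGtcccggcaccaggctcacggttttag
Traj12 (chr14:54206553-54206610): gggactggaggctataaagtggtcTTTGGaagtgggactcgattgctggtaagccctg
Read along the plus strand of the gene, 58 of 70 annotated J genes (82.9%) and 4 of 10 J pseudogenes held either motif, and 6 J genes and no J pseudogene held it on the reverse strand. Trbj2-6 held neither motif on its own strand. TGT lay within the last 25 bases in 139 of 144 V genes (96.5%), and on the reverse strand in 6.

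Receptor RNA was mostly alpha and beta, and most of it was in tumour 3. The alpha locus summed to 5.96 CPM in tumour 1 (95% Poisson interval 4.80 to 7.33), 12.5 CPM in tumour 2 (10.8 to 14.3) and 154 CPM in tumour 3 (148 to 160). The beta locus summed to 0.928 CPM (0.507 to 1.56), 4.29 CPM (3.35 to 5.42) and 212 CPM (205 to 219) in the same order. The intervals of the 3 tumours did not overlap in either locus. The mean over tumours was 57.4 ± 83.4 CPM for alpha and 72.5 ± 121 CPM for beta (SD, n = 3). Tumour 3 set both means, which were 9.24 and 2.61 CPM without it. In these bulk samples of cells sorted as B220+GFP+, a gate for B lineage cells, fewer cells with receptor RNA and less receptor RNA per cell cannot be told apart.

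Gamma and delta RNA, which marks the other T cell lineage, stayed within 7 counts per locus and library. The gamma locus had 0 counts in tumour 1, which allows up to 0.199 CPM (3 counts), and 7 counts each in tumours 2 and 3 (0.429 and 0.395 CPM). These were counts of the constant genes Trgc2 (0, 3 and 7) and Trgc4 (0, 3 and 0), and 1 count of Trgv2 in tumour 2. Trdc, the delta constant gene, had 1 count, in tumour 3. The gamma levels of tumours 2 and 3 were not distinguishable at this depth.

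**Figure D1:**
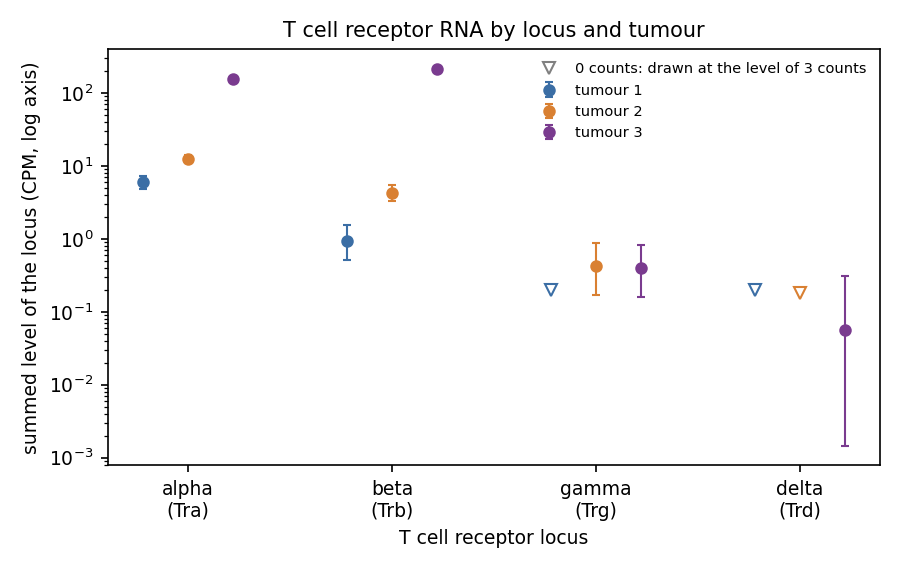
Summed level of each T cell receptor locus (CPM, log axis) in tumours 1, 2 and 3. Points are the library's value, bars its 95% Poisson interval and open triangles loci with 0 counts, drawn at 3 counts. Alpha and beta were highest in tumour 3, at 154 and 212 CPM, and gamma and delta stayed below 1 CPM.

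A gene was called highest in a tumour where its log2 CPM (with a prior count of 2) was at least 2 above both other tumours. Tumour 3 had 10 of the 43 members so called, against 3.23% of all genes with a count. These were Trac, Trbc2, Trbv13-2, Trbv12-2, Trbv4, Trav6-2, Trbj2-5, Trbj2-6, Trbj2-7 and Traj12. Tumour 2 had 1 (Trbv20, with 6 counts there and none elsewhere), against 2.0% of all genes (509 of 25463), and tumour 1 had 0, against 1.16%. The call of Trbv20 was lost with DESeq2 size factors, with a prior count of 5 and at a difference of 3. The median over members of the log2 CPM in tumour 3 minus the higher of tumours 1 and 2 was 0.55, and -0.34 over all genes with a count. The members were proposed with these levels known, and most were too low to be called.

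Of the 43 members, 3 had a count in every tumour, and all of these are constant genes. There were 6 members with a count in tumour 1, 19 in tumour 2 and 31 in tumour 3. Members seen in 1 tumour alone numbered 3 in tumour 1, 9 in tumour 2 and 21 in tumour 3. Over all genes with a count, 4.96% had counts in tumour 1 alone, 5.99% in tumour 2 alone and 9.12% in tumour 3 alone. The rule used these counts, so the members' numbers are a description. Most members were faint: 25 had at most 3 counts over all libraries, and 10 reached 10 counts in any library.

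The constant genes carried most receptor counts. Trac (ENSMUSG00000076928.5, chr14:54220521-54224206), which encodes the alpha constant region, had 87, 199 and 2569 counts, or 5.77, 12.2 and 145 CPM, in tumours 1, 2 and 3. Its CPM in tumour 3 was 11.9 times that in tumour 2 (95% exact conditional interval 10.3 to 13.8). In tumour 2 it was 2.12 times that in tumour 1 (1.64 to 2.75). Neither interval includes 1, so the counting error does not cover the order of the tumours in Trac.

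Of the 2 beta constant genes, Trbc2 (ENSMUSG00000076498.2, chr6:41546730-41548352) had 8, 37 and 1900 counts (0.530, 2.27 and 107 CPM). Trbc1 (ENSMUSG00000076490.6, chr6:41538218-41539881) had 3, 10 and 25 counts (0.199, 0.613 and 1.41 CPM). Tumour 3 exceeded tumour 2 by 47.2 times in Trbc2 (34.1 to 67.3) and by 2.30 times in Trbc1 (1.07 to 5.36), and these intervals lie apart. Trbc2 held 98.7% of Trbc1 and Trbc2 counts in tumour 3 (98.1 to 99.1, Wilson, 95%). In tumour 2 it held 78.7% (65.1 to 88.0) and in tumour 1 72.7% (43.4 to 90.3), and these 2 shares were not distinguishable. Both genes encode near-identical constant regions, each downstream of its own D and J cluster. Their transcripts were 95.5% identical over 512 aligned bases and shared an unbroken run of 259 bases, so reads in that run may have been lost or divided.

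The balance of alpha over beta constant RNA differed between tumours. Per exon length, Trac was at 6.17, 13 and 155 RPKM (CPM per 1000 bases of exon) in tumours 1, 2 and 3. Trbc1 and Trbc2 together were at 1.03, 4.10 and 157 RPKM. The ratio of alpha to beta levels was therefore 5.98, 3.19 and 0.989. Of stretches as long as a read, 100% were unique in Trac, 59.5% in Trbc1 and 56.0% in Trbc2. If reads shared by Trbc1 and Trbc2 were lost, the beta levels are too low. The ratios, and the shares of Trac that follow, would then be too high in each tumour. In raw counts, Trac held 88.8% of 98 constant counts in tumour 1 (81.0 to 93.6), 80.9% of 246 in tumour 2 (75.5 to 85.3) and 57.2% of 4494 in tumour 3 (55.7 to 58.6). The interval of tumour 3 lay below the other two, and those overlapped.

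V segments made up a large part of beta counts and a small part of alpha counts. In tumour 3, beta V rows held 45.7% of 3764 beta counts (44.1 to 47.3), J rows 2.98% and the D segment Trbd1 0.159% (6 counts). J and D shares are not comparable with the V share, since most reads touching such short segments cross into neighbouring sequence. Beta V rows held 31.4% of 70 counts in tumour 2 (21.8 to 43.0) and 21.4% of 14 in tumour 1 (7.57 to 47.6). The beta V share of tumour 3 thus lay above that of tumour 2, while tumour 1 was too shallow to place.

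In the alpha locus, V rows held 3.41% of 2726 counts in tumour 3 (2.79 to 4.16). In tumour 2 they held 1.47% of 204 (0.501 to 4.23), and in tumour 1 they held 0 of 90 (0 to 4.09). No difference between tumours was detectable at this depth. Constant counts took 96.7%, 97.5% and 94.2% of the alpha locus in tumours 1, 2 and 3, and 78.6%, 67.1% and 51.1% of the beta locus. The beta constant shares may be too low, since reads in stretches shared by Trbc1 and Trbc2 may have been lost. Alpha V segments have more near copies than beta V segments. Of 65 listed alpha V rows, 22 had fewer than 50% of their 50-base stretches unique among annotated transcripts (median 58.5%), against 2 of 27 beta V rows (median 100%). A further 64 annotated alpha V genes, 53 of them under 50%, were not used here, since the tables do not list them. The part of these copies in the low alpha V share was not tested.

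**Figure D2:**
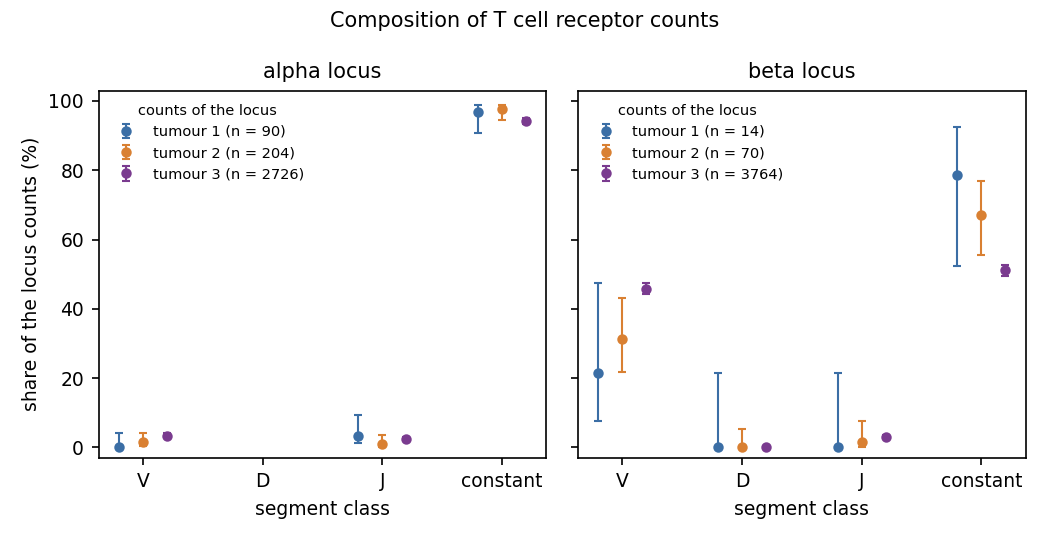
Share of alpha (left) and beta (right) locus counts in V, D, J and constant rows of tumours 1, 2 and 3, in percent, with 95% Wilson intervals. The legend gives the counts of the locus. J and D shares are not comparable with V or constant shares. Beta V rows held 45.7% in tumour 3, and alpha V rows 3.41%.

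One V segment held most V counts of each chain in tumour 3. Trbv13-2 (ENSMUSG00000076469.3), whose sequence toward the 3′ end is given above, had 0, 1 and 1262 counts in tumours 1, 2 and 3. It held 73.3% of 1721 beta V counts in tumour 3 (71.2 to 75.4). Trbv12-2 (ENSMUSG00000094525.2) followed with 0, 0 and 439 counts and 25.5% (23.5 to 27.6). The other 7 beta V rows with a count there had 1 to 7 counts each, and the highest was Trbv4 with 7 counts and 0.407%. Of the 50-base stretches of Trbv4, 27.9% are unique, and the gene overlaps the long non-coding RNA 5830405F06Rik.

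Trbv12-2 and Trbv13-2 are neighbours, in that order toward the constant genes, with 2031 bases between them. Of the 11 listed V rows before Trbv13-2, 6 had a count in tumour 3, summing to 454 counts, nearly all of Trbv12-2. Of the 15 V rows after it, 2 had a count, summing to 5. These 15 include Trbv31, which lies beyond Trbc2 and had no count in any tumour. The transcripts of Trbv12-2 and Trbv13-2 were 74.3% identical, with a longest shared run of 18 bases. Trbv13-2 was closer to its family members Trbv13-1 (88.7% identical, longest run 34) and Trbv13-3 (90.6%, longest run 50), which had 4 and 2 counts in tumour 3. The tail sequences above show these differences near the cysteine codon. Of the 50-base stretches, 99.7% were unique in Trbv13-2 and 98.8% in Trbv12-2.

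Per exon length in tumour 3, Trbv13-2 was at 209 RPKM, above Trbc2 at 155 RPKM and Trbv12-2 at 64.3 RPKM. Of stretches as long as a read, 99.7% were unique in Trbv13-2 but only 56.0% in Trbc2. Reads shared by Trbc1 and Trbc2 may have been lost, so the level of Trbc2 may be too low. The order of Trbv13-2 and Trbc2 is for this reason not certain. The CPM of Trbv13-2 there was at least 358-fold higher than in tumour 1, where it had no count (against 3 counts in that library). Against its 1 count in tumour 2, the ratio was 1160 (208 to 45863).

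In the alpha locus, Trav6-2 (ENSMUSG00000076764.3) had 85 counts in tumour 3 and none in tumours 1 and 2. It held 91.4% of 93 alpha V counts in tumour 3 (83.9 to 95.6). These 93 counts were only 3.41% of the 2726 alpha counts there, and 64 annotated alpha V genes were not used here. The V segments behind most alpha RNA of tumour 3 were therefore not seen. The other 5 alpha V rows seen there had 1 to 3 counts each, led by Trav2 with 3 and Trav13-1 with 2. Trav6-2 was at 14.0 RPKM there, against 155 RPKM for Trac. Of its 50-base stretches, 84.4% were unique, and its transcript shared 93.8% of bases and a run of 79 bases with Trav6-1, which had no count.

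Tumour 2 spread its few beta V counts over more segments. Its 22 counts fell on 8 rows, led by Trbv20 with 6 counts (27.3%, 13.2 to 48.2) and by Trbv16 and Trbv19 with 5 each (22.7%, 10.1 to 43.4). The leading share lay below that of tumour 3, with no overlap of the intervals. The effective number of segments (the inverse of the summed squared shares) was 5.15 in tumour 2, 1.66 in tumour 3 for beta and 1.19 in tumour 3 for alpha. At 22 counts, tumour 3 would show 2.25 beta V rows on average (exact hypergeometric expectation), against the 8 of tumour 2. Trbv20 and Trbv16 had no count in tumour 3, and Trbv19 had 3. Tumour 1 had 3 beta V counts in all, 2 of Trbv29 and 1 of Trbv15, too few for a share. The alpha V counts of tumour 2 were 2 of Trav14n-3 and 1 of Trav3-4, rows with no count elsewhere.

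**Figure D3:**
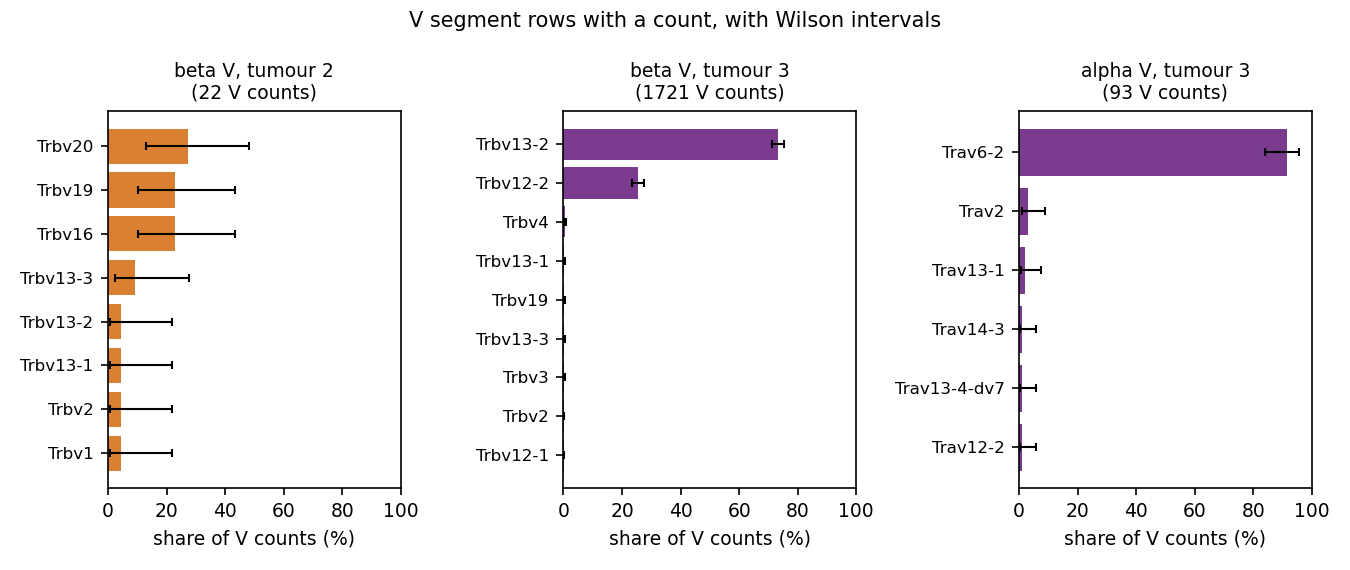
Share of V counts held by each V row with a count, in percent, for beta V in tumours 2 and 3 and alpha V in tumour 3. Bars are shares and lines 95% Wilson intervals. Trbv13-2 and Trav6-2 held 73.3% and 91.4% in tumour 3, while no row of tumour 2 passed 27.3%.

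A single J segment also held most J counts of each chain in tumour 3. In the beta locus, Trbj2-5 had 74 of 112 J counts (66.1%, 56.9 to 74.2), Trbj2-6 had 22 (19.6%, 13.3 to 28.0), Trbj2-7 had 14 (12.5%, 7.59 to 19.9) and Trbj1-2 had 2. None of the first 3 had a count in tumours 1 and 2. These 3 segments lie in a row, with 96 bases between Trbj2-5 and Trbj2-6 and 164 between Trbj2-6 and Trbj2-7. Trbj2-1, Trbj2-2, Trbj2-3 and Trbj2-4, which lie before Trbj2-5, had 0 counts in tumour 3. The counts thus started at Trbj2-5 and fell toward Trbc2, which lies 3228 bases farther on. Trbj2-6, printed above, is annotated as a pseudogene and lacks the motif of the other two.

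In the alpha locus, Traj12 had 56 of 64 J counts in tumour 3 (87.5%, 77.2 to 93.5) and none elsewhere. Of the 38 listed J rows before it, 2 had a count (Traj37 and Traj15, 1 each). Of the 10 rows after it, 3 had a count (Traj11 with 1, Traj3 with 3 and the pseudogene Traj1 with 2). Traj12 lies 13910 bases before Trac. In tumour 1, the only J row with a count was Traj23, with 3. In tumour 2, Traj11, Traj18 and Trbj2-3 had 1 count each.

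Trbd1, the 12-base beta D segment gggacagggggc (chr6:41533201-41533212), had 6 counts in tumour 3 and none elsewhere. D and most J segments are shorter than or about as long as a read. Most reads that touch them must therefore cross into a neighbouring segment or flanking sequence, and how such reads were counted is not given in the sources used here. J and D counts are for this reason not comparable with V or constant counts. Whether they are comparable between tumours was not tested.

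**Figure D4:**
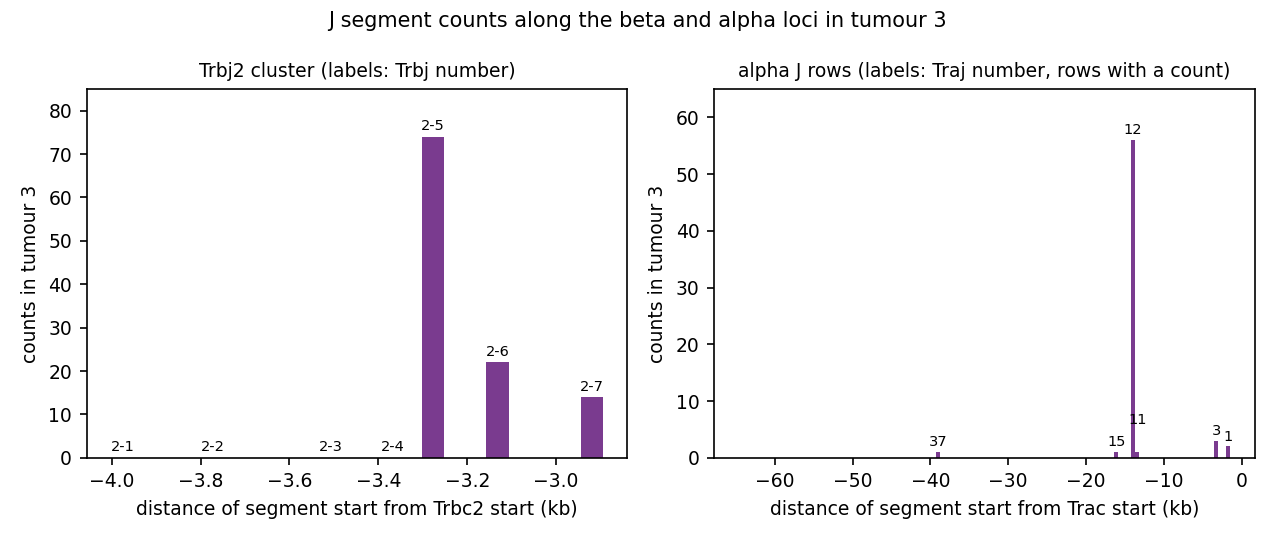
Counts of J rows in tumour 3 by the distance of the segment's start from the start of the constant gene (kb), for the Trbj2 cluster and Trbc2 (left) and the alpha J rows and Trac (right). Trbj2-5, Trbj2-6 and Trbj2-7 had 74, 22 and 14 counts, and Traj12 had 56.

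The receptor reaches the cell surface with the CD3 chains, which signal for it. Cd3e had 0, 23 and 1023 counts (0, 1.41 and 57.7 CPM) in tumours 1, 2 and 3. Cd3d was at 0.398, 1.23 and 41.2 CPM, Cd3g at 2.39, 10.7 and 56.4 CPM and Cd247, the zeta chain, at 0.199, 1.04 and 39.5 CPM. All of these were called highest in tumour 3. Tumour 3 exceeded tumour 2 by 40.9 times in Cd3e (27.1 to 64.8), 33.6 times in Cd3d (21.6 to 55.3), 37.9 times in Cd247 (23.5 to 65.5) and 5.26 times in Cd3g (4.47 to 6.21). The ratio for Trbc2 (47.2) lay within the intervals of Cd3e, Cd3d and Cd247, and those of Trac (11.9) and Cd3g lay below these intervals. In tumour 1, 87 counts of Trac therefore stood beside 0 of Cd3e, 6 of Cd3d, 3 of Cd247 and 36 of Cd3g.

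Of the coreceptors, Cd8a (0.663, 4.54 and 238 CPM) and Cd8b1 (0.464, 1.72 and 63.9 CPM) were called highest in tumour 3. They encode the chains of CD8, which binds MHC class I. Tumour 3 exceeded tumour 2 in Cd8a by 52.5 times (41.7 to 66.9) and in Cd8b1 by 37.2 times (25.6 to 56.3). Cd4, the coreceptor for MHC class II, was called highest in tumour 2, with 9, 95 and 16 counts.

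Of 14 genes of the receptor complex and its signalling, 10 were called highest in tumour 3, beside the 3.23% of all genes. The median of the 14 was 1.06, 2.85 and 57.0 CPM in tumours 1, 2 and 3, against 0.530, 0.797 and 0.789 CPM over all genes with a count. The kinase Fyn was at 146 CPM in tumour 3 and the adaptor Lat at 118 CPM. The 4 not called were Ptcra, Lck, Cd2 and Cd5. Of these, Cd2, an adhesion receptor, was at 35.3, 213 and 381 CPM, and the kinase Lck at 68.7, 23.5 and 199.9 CPM. Cd5, a surface receptor that some B cells also carry, was highest in tumour 1 (82.0, 33.9 and 16 CPM). Ptcra, which encodes the pre-T alpha chain of immature T cells, had 2, 0 and 2 counts.

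The recombination genes were near 0. Rag1, of the enzyme that cuts receptor loci, had 0, 5 and 5 counts, Rag2, its partner, had none, and Dntt, which adds bases at joints, had 0, 2 and 0. Of 10 T lineage transcription factors, 2 (Bcl11b and Tox) were called highest in tumour 3, against 3.23% of all genes with a count. The list median was 9.15, 6.22 and 41.3 CPM. The most abundant members of the list were Ets1 (193, 186 and 458 CPM) and Runx3 (77.3, 188 and 208 CPM), which were not called.

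**Figure D5:**
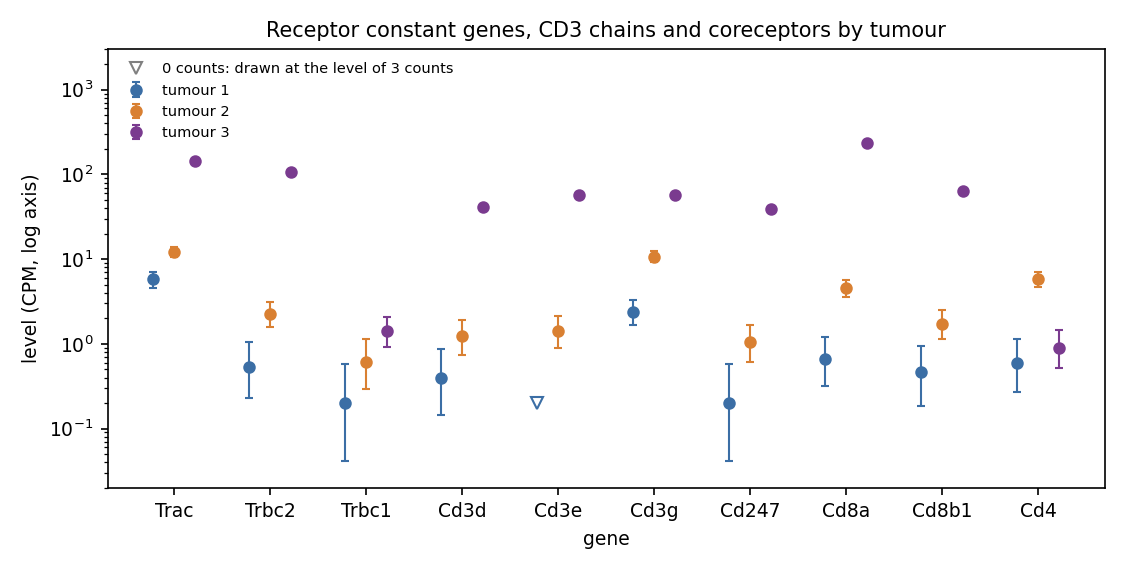
Level (CPM, log axis) of receptor constant genes, CD3 chains and coreceptors in tumours 1, 2 and 3. Points are library values, bars 95% Poisson intervals, and the open triangle is a gene with 0 counts drawn at 3 counts. All but Cd4 were highest in tumour 3, where Trac, Trbc2 and Cd8a passed 100 CPM.

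Most markers of T cells were highest where the receptor counts were, and Cd5 and Cd4 were not. Over all genes with a count, 3.23% were called highest in tumour 3 and 2.0% in tumour 2. Of 10 T cell markers, 8 were called highest in tumour 3 (all but Cd2 and Cd5, whose values are given above), and the list summed to 123, 270 and 983 CPM in tumours 1, 2 and 3. Only Cd3e was at 0, in tumour 1. Of 8 CD8 T cell markers, 7 were called (all but Gzmb), with sums of 10.3, 35.1 and 1011 CPM and Prf1 at 0 in tumour 1. The CD4 T cell list summed to 21.7, 55.2 and 98.8 CPM, most of it the uncalled transcription factor Zbtb7b (20.1, 47.5 and 60.5 CPM). Of its 5 genes, 2 (Foxp3 and Icos) were called highest in tumour 3, Cd4 in tumour 2, and Cd40lg was at 0 in tumours 1 and 2. The B220+GFP+ gate selects B lineage cells and would leave out T cells that lack these labels, and the part of T cells in the receptor counts was not tested.

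The lists of gamma delta T cells and NK cells had low sums. The calls below stand beside 1.16%, 2.0% and 3.23% of all genes called highest in tumours 1, 2 and 3. The gamma delta T cell list summed to 0.464, 1.66 and 13.8 CPM, most of it Maf (0.398, 1.47 and 13.1 CPM). Of its 3 genes, 1 (Maf) was called highest in tumour 3. Cd163l1 was at 0 in tumours 1 and 3. The NK cell list summed to 1.86, 1.35 and 2.14 CPM, with Ncr1 at 0 in every tumour, Klre1 and Klrk1 at 0 in tumour 1 and 0 of 5 genes called highest in tumour 3. Klrb1c was called highest in tumour 1 (26, 1 and 0 counts). Macrophage markers summed to 11.0, 77.4 and 17.2 CPM, with 4 of 6 called highest in tumour 2. None of the 5 B cell markers was called highest in any tumour.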

How the data were processed

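RNA of sorted B220+GFP+ spleen cells was measured in 3 pBIC2 lymphoma libraries, whose numbers follow their accessions and serve as names alone. The labels do not say that they came from separate mice. Raw gene counts were deposited. The submitters' processing notes name STAR (2.5.2b), featureCounts (1.6.0) and the build mm10. No source used here gives the annotation release, the strand setting or how reads matching several genes were treated. Each table lists 37646 genes, and a gene or its antisense partner cannot be told apart without strand.

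Counts were scaled with TMM factors (edgeR 4.0.16, R 4.3.3) from 11273 genes kept by filterByExpr, and RPKM used exon lengths of GENCODE M21, whose versioned identifiers matched all 176 receptor rows. A further 94 annotated receptor genes were not used here. Shares have 95% Wilson intervals, summed counts exact Poisson intervals, and ratios between libraries exact conditional binomial intervals. No molecular identifiers are named in the labels, so these intervals cover counting error only. The floor of 3 counts lies at 0.199, 0.184 and 0.169 CPM in the libraries of tumours 1, 2 and 3. V shares were computed from 20 V counts. Sequences were copied from GENCODE M21 transcripts. DESeq2 1.42.0 gave alternative size factors.

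The members, gene lists and tests were chosen with earlier results of these data known. Named were the constant genes, the 3 most counted rows of each class and locus, V rows with at least 10% of V counts, all members called highest in a tumour, and fixed genes of the receptor complex. Other members with their counts were added after their values were seen. Some genes of the lists are not reported here, and list counts, sums and medians leave them out.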

Additional observations from a re-analysis of the deposited data

How the results depend on the processing

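Of 79 alternative values for 24 results, 57 stayed within the counting interval, the SD or 1.5 times of the value reported and 22 moved. Some of the 57 could not have moved, so this number is no measure of stability. With 3 libraries, a mean that leaves a library out always lies within the SD of the full mean. V pseudogenes had no counts, so leaving them out could not change a V share. Without constant genes, the alpha level was 0.199, 0.307 and 8.85 CPM in tumours 1, 2 and 3 and the beta level 0.199, 1.41 and 104 CPM. Scaled by total counts, tumour 3 had 160.2 CPM of alpha and 221 CPM of beta, above the counting intervals. The mean locus level without each tumour in turn ranged from 9.24 to 83.1 CPM for alpha and from 2.61 to 108 CPM for beta, lowest without tumour 3 in both. Detected receptor rows were 21 at 3 counts or more and 10 at 10 counts or more, and ranged from 22 to 40 without each tumour in turn, with 22 without tumour 3. Members highest in tumour 3 numbered 17 with a prior count of 0.5 (7.18% of all genes), 14 at a difference of 1 (8.23%) and 8 at a difference of 3 (1.71%), and 8 to 12 under the other alternatives (2.38% to 7.62%). Those highest in tumour 1 numbered 2 at a difference of 1 (6.19% of all genes) and 2 with a prior count of 0.5 (3.23%). Those highest in tumour 2 numbered 4 at a difference of 1 (8.0%) and 4 with a prior count of 0.5 (5.10%), and 0, with Trbv20 lost, at a difference of 3, with a prior count of 5, among rows with 10 counts or more and with DESeq2 size factors. Apart from the rows or libraries left out, the cause of these moves was not tested. Without the Trbv12-2 row, an alternative chosen after seeing the data, Trbv13-2 held 98.4% of the beta V counts of tumour 3, and the effective number was 1.03. No paired analysis was possible because the labels give 1 group. Depth limits tumour 1, with 14 beta counts, and tumour 2, with 22 beta V counts.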
